A study of Homo sapiens with 6 samples.

Results

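MEIS, PBX, PKNOX and TGIF proteins belong to the TALE class of homeodomain transcription factors, named after a 3-amino-acid loop extension in the DNA-binding domain. Of the genes of this class, 9 were examined as a fixed list of symbols, MEIS1, MEIS2, MEIS3, PBX2, PBX3, PBX4, PKNOX1, PKNOX2 and TGIF1, out of 47470 genes listed in the count files. All 9 were listed and all 9 passed the filter on low counts. mRNA of HEK293T, an adherent human embryonic kidney line that carries the large T antigen of SV40, was sequenced from strand-specific libraries. Cells were either left without treatment (genotype label WT) or kept for 1 day with 1 mM valproic acid (VPA), which inhibits histone deacetylases, and no other genetic change or agent is named for either condition. There were 3 libraries per condition, and nothing in the labels says that they came from separate cultures, so the p-values measure the spread between these libraries, which may be technical.

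PBX proteins are DNA-binding partners of HOX proteins, which have little sequence selectivity alone and gain it in complex with PBX. MEIS and PKNOX proteins bind PBX proteins through their amino-terminal part, and this contact keeps PBX in the nucleus. TGIF1 lacks that contact and acts as a repressor, among others of SMAD proteins in TGF-beta signalling and of retinoid receptors.

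Counts on genes lay between 18622267 and 18828495 per library, so depth differed little. Values below are normalised read counts, which are counts scaled with the TMM method to the mean library, and fold changes are log2 values of VPA-treated over untreated cells. Each was tested with edgeR's quasi-likelihood test over 15298 genes with Benjamini-Hochberg adjustment, and a gene was called at an adjusted p under 0.05. Kidney and epithelial markers were present at a summed 16542 to 16980 normalised counts in untreated and 14651 to 15315 in VPA-treated libraries. VIM, a mesenchymal filament gene, gave most of this sum, with a mean of 10739 before and 8931 after VPA. Of the 11 markers 10 were tested, 4 of them higher and 5 lower, against 32.9% and 30.0% of all tested genes. PAX2 with a log2 fold change of 2.26, KRT8 with 1.37, LHX1 with 0.79 and KRT18 with 0.22 were the higher ones. EYA1 with -0.68, SIX2 with -0.38, CDH2 with -0.37, VIM with -0.27 and SALL1 with -0.16 were the lower ones. PAX8 was all but absent, with 2 counts over the 6 libraries. Of 9 markers of other cell types 6 could be tested and all 6 were higher after VPA, against 32.9% of all tested genes. COL1A1, TUBB3, RBFOX3 and DCN had log2 fold changes of 1.57, 1.37, 2.10 and 5.19. Sums over the list were 587 to 672 in untreated and 1820 to 2033 in VPA-treated libraries. DCN had no count in 2 of the untreated libraries, so its fold change depends on the prior count. PTPRC was at 0 in every untreated library, and ALB and PECAM1 had 2 and 5 counts in all. The part of these markers in the changes of the TALE genes was not tested, and in bulk RNA fewer cells of a type and less RNA per cell cannot be told apart.

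MEIS3 was the member that rose most, and PBX2 the most abundant member. MEIS1, a paralog of MEIS3, changed least with TMM and edgeR. The sequences before the transcription starts of these genes are shown because they let the paralogs be compared by the letters before their starts. Each is the 250 bases before a RefSeq start on GRCh38.p14, read 5′ to 3′ on the gene's strand, and none overlaps an exon of GENCODE 44. In GENCODE 44 MEIS3 reaches only to 47419527, at the second start shown, so the first start lies outside that gene. MEIS1 begins there at 66433452, before the start shown. Capitals mark GGGCGG or its reverse complement CCGCCC, a box bound by SP and KLF factors, and CCAAT on either strand, a box bound by NF-Y.
MEIS3, first start, chr19:47422234-47422483, minus strand: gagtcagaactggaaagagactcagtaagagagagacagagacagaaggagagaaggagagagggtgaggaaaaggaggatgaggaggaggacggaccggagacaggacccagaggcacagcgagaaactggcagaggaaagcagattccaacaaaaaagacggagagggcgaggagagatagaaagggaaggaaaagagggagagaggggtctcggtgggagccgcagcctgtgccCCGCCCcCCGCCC
MEIS3, second start, chr19:47419528-47419777, minus strand: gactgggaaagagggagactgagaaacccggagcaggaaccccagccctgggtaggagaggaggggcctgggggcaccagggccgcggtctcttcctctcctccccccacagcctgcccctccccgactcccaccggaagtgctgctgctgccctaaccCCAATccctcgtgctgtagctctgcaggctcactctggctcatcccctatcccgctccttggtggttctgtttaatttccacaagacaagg
MEIS1, chr2:66434875-66435124, plus strand: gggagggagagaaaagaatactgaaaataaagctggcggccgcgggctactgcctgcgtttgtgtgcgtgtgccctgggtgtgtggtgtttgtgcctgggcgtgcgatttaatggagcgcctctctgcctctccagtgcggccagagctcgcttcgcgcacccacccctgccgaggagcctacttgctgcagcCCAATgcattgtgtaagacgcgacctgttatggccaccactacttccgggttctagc
PBX2, chr6:32190203-32190452, minus strand: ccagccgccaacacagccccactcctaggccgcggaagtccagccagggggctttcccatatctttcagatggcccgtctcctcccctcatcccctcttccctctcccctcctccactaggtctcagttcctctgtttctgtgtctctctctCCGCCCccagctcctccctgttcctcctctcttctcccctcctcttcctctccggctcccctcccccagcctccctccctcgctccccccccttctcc

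The windows differed in composition. The ratio of observed to expected CpG was 0.51 and 0.29 before the MEIS3 starts, 0.42 before PBX2 and 0.72 before MEIS1. The median was 0.558 over 35116 windows of this length. Among the windows not printed, MEIS2 had 1.22 and 0.76, PBX3 1.01, PBX4 1.07, PKNOX1 0.92 and TGIF1 0.44 to 0.96. Those of MEIS2 overlap a GENCODE exon and were therefore not printed. RefSeq windows were given for 8 of the 9 members, 16 in all. GGGCGG stood in 12 of these 16 windows, on either strand, against 42.6% of all windows, and PKNOX1 held it 6 times. CCAAT stood in 5 windows, of MEIS1, MEIS2, MEIS3 and TGIF1, against 32.0% of all windows. TGACAG, the core that MEIS and PKNOX proteins prefer, was searched on both strands and stood in 3 windows, of PBX3 and TGIF1, against 13.0%. TGATTNAT, a joint PBX and HOX site, stood in 3 windows, of MEIS2 and TGIF1, against 2.48%. TGACGTCA, the cyclic AMP response element, stood in none of the 16 and in 1.65% of all. The count files do not tell which start was used, and 7 of the 16 windows belong to TGIF1, of which 2 overlap each other. A match of letters is a description and not a bound site.

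All 9 members, which were chosen with earlier results of these data known, passed the test, 3 of them higher and 6 lower after VPA. Over all tested genes 32.9% were higher and 30.0% lower at the same threshold, 62.9% in all, so that a change of either sign was frequent in these libraries. At the thresholds of the study, which add a log2 fold change of 1 or more in either direction, MEIS3 was the 1 member up-regulated and no member was down-regulated by edgeR or DESeq2, against 12.0% and 0.503% of all tested genes. The median log2 fold change of the members was -0.43, beside 0.0058 over all tested genes. In each of the 9 genes the 3 VPA-treated libraries lay wholly above or wholly below the 3 untreated ones, which was also so for 34.8% of all tested genes upwards and 31.0% downwards.

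**Figure D1:**
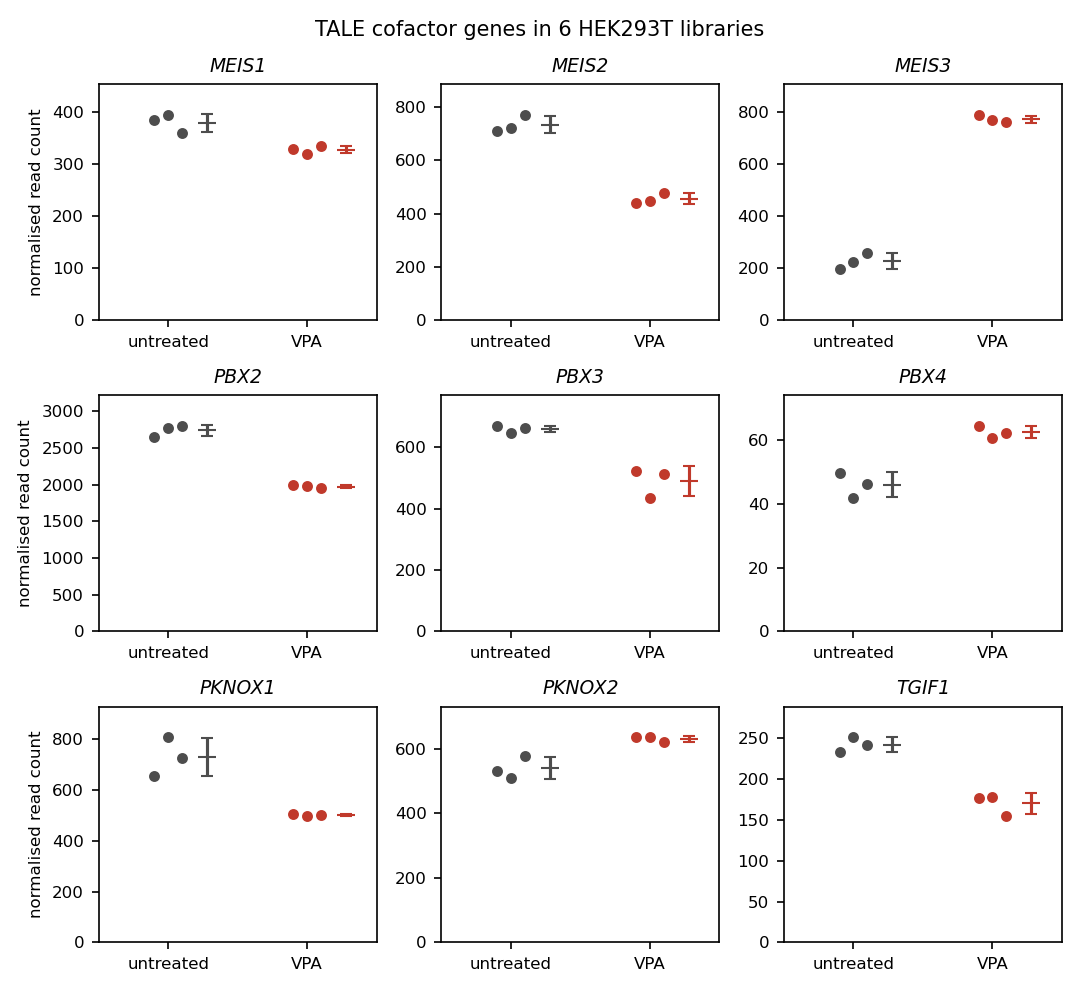
Normalised read counts of the 9 members in each library. Points are libraries, replicates 1 to 3 from left to right, and the bar beside them is the mean with the SD (n = 3). MEIS3 rose from 199 to 258 up to 759 to 786, and no gene has overlapping groups.

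MEIS genes encode partners that bind both PBX proteins and DNA. Gene positions here and below are those of RefSeq on GRCh38.p14. MEIS3, known from hindbrain patterning, lies on the minus strand of chromosome 19 from 47403124 to 47422233. Normalised counts were 199, 223 and 258 without VPA and 786, 769 and 759 with it. The lowest VPA-treated library was thus far above the highest untreated one. MEIS3 rose by 1.77 on the log2 scale (SE 0.075, edgeR adjusted p = 1.54e-14), or 3.40-fold. By its p it was 96th of the 15298 tested genes, and its log2 fold change was at the 94.8th percentile of them. It was also called when edgeR tested against the fold threshold itself (glmTreat).

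MEIS2, which acts in limb, heart and neural crest development, lies on the minus strand of chromosome 15 from 36889204 to 37101311 and moved in the opposite direction. It was at 709, 722 and 769 normalised counts in untreated cells and at 440, 449 and 480 after VPA. No treated library reached an untreated one, and the change was -0.69 on the log2 scale (SE 0.061, edgeR adjusted p = 2.62e-09). With 62.2% of its untreated level left, MEIS2 had the largest decrease of the 9 genes. In all, 1.98% of tested genes had a log2 fold change as low or lower.

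MEIS1, a HOX cofactor best known from blood stem cells and leukaemia, is on chromosome 2 from 66435125 to 66573869 on the plus strand. Its normalised counts were 385, 395 and 361 in untreated and 330, 321 and 335 in VPA-treated cells. The groups stood apart by a small gap. At -0.21 on the log2 scale (SE 0.070, edgeR adjusted p = 0.012) it was the smallest change in size among the 9 genes. PKNOX2 was close at 0.23. With DESeq2 PKNOX2 was the smaller, at 0.20 against -0.24 for MEIS1. The sign for MEIS1 depended on the scaling. The change was -0.15 after upper quartile scaling, -0.080 after scaling to library totals and 0.064 with ribosomal protein genes as the reference. The edgeR adjusted p was 0.078, 0.34 and 0.45 in that order. MEIS1-AS3, a transcript of the opposite strand that shares 19 exonic bases with MEIS1, went from 27.2 ± 2.94 to 47.3 ± 5.77 normalised counts (SD, n = 3 each), which is 0.80 on the log2 scale (edgeR adjusted p = 0.00097). The libraries keep the strand, but the strand setting of the counting is not given in the sources used here, so reads of the pair could not be assigned with certainty. MEIS1-AS2 is listed at 0 throughout. GENCODE 44 also places a transcript opposite MEIS2 that shares 431 exonic bases with it and one on the strand of PBX2 that shares 662, which were not analysed here. MEIS3P1, a copy of MEIS3, had 6 counts over the 6 libraries.

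Ratios of raw counts within a library do not depend on how libraries are scaled. The ratio of MEIS3 to MEIS2 counts was 0.28, 0.31 and 0.34 without VPA and 1.79, 1.71 and 1.58 with it. MEIS2 thus had more counts than MEIS3 in every untreated library and fewer in every treated one, and the mean ratio rose 5.50-fold. The ratio of MEIS3 to MEIS1 counts went from a mean of 0.60 to 2.35, and that of MEIS2 to MEIS1 from 1.93 to 1.39.

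PBX genes encode the direct partners of HOX proteins. PBX2, a widely expressed member within the major histocompatibility complex, lies on the minus strand of chromosome 6 from 32184733 to 32190202 and was the best-counted of the 9 members with 14041 counts over the 6 libraries. It had 2646, 2774 and 2795 normalised counts in untreated cells and 1992, 1981 and 1950 after VPA. The treated libraries lay close together and far below the untreated ones, with a change of -0.47 on the log2 scale (SE 0.042, edgeR adjusted p = 2.62e-09). PBX2 had the smallest p of the lower members, with MEIS2 nearly equal (1.80e-10 for each in edgeR). With upper quartile scaling MEIS2 had the smaller edgeR adjusted p, 7.45e-09 against 1.55e-08. The files also list 6 numbered copies of its symbol, and each of these is at 0 in every library.

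PBX3, known from the development of brainstem neurons, is on chromosome 9 from 125747373 to 125967377 on the plus strand. Its normalised counts were 668, 647 and 661 in untreated and 523, 433 and 513 in VPA-treated cells, where replicate 2 was the lowest. PBX3 fell by 0.43 on the log2 scale (SE 0.067, edgeR adjusted p = 1.05e-05), and even its highest treated library was below all untreated ones. With ribosomal protein genes as the reference the value was -0.15 and did not pass (edgeR adjusted p = 0.063). The ratio of PBX3 to PBX2 counts was 0.24 ± 0.010 before and 0.25 ± 0.025 after treatment (SD, n = 3 each), a difference within the spread between libraries.

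PBX4, a member best known from testis, lies on the minus strand of chromosome 19 from 19561713 to 19618687 and was the least counted of the 9 members with 327 counts in all. It was at 49.7, 41.9 and 46.2 normalised counts in untreated and 64.2, 60.7 and 62.2 in VPA-treated cells. PBX4 was thus the 1 higher gene among the PBX members listed here. Its change of 0.44 on the log2 scale had the widest error of the 9 members (SE 0.15, edgeR adjusted p = 0.016). The call was lost with DESeq2 (0.42, adjusted p = 0.17) and without untreated replicate 2, the library with the lowest value (0.37, adjusted p = 0.069 in edgeR).

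PKNOX proteins, also called PREP, are further partners of PBX. PKNOX1, needed for early embryonic growth and blood formation, is on chromosome 21 from 42974562 to 43033931 on the plus strand. Its normalised counts were 656, 808 and 725 before and 507, 496 and 503 after treatment, so the spread was wide before treatment and narrow after it. PKNOX1 fell by 0.54 on the log2 scale (SE 0.068, edgeR adjusted p = 5.19e-07). PKNOX2, a paralog found mainly in brain and muscle, is on chromosome 11 from 125164751 to 125433389 on the plus strand. It was at 532, 510 and 576 normalised counts in untreated and at 635, 636 and 621 in VPA-treated cells. PKNOX2 rose by 0.23 on the log2 scale (SE 0.060, edgeR adjusted p = 0.0026), with a narrow gap between the conditions. The paralogs therefore moved in opposite directions. Counts of PKNOX2 over those of PKNOX1 gave ratios of 0.81, 0.63 and 0.79 without and 1.25, 1.28 and 1.24 with VPA, so that PKNOX1 had more counts in every untreated library and PKNOX2 in every treated one.

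TGIF1, the repressor of the list, is on chromosome 18 from 3412009 to 3459978 on the plus strand. It had 233, 251 and 241 normalised counts in untreated and 177, 178 and 155 in VPA-treated cells. All treated libraries lay below the untreated ones, and the change was -0.51 on the log2 scale (SE 0.089, edgeR adjusted p = 4.25e-05). TGIF1 thus belonged to the 4 members that fell by between 0.43 and 0.54, with PBX2, PBX3 and PKNOX1.

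**Figure D2:**
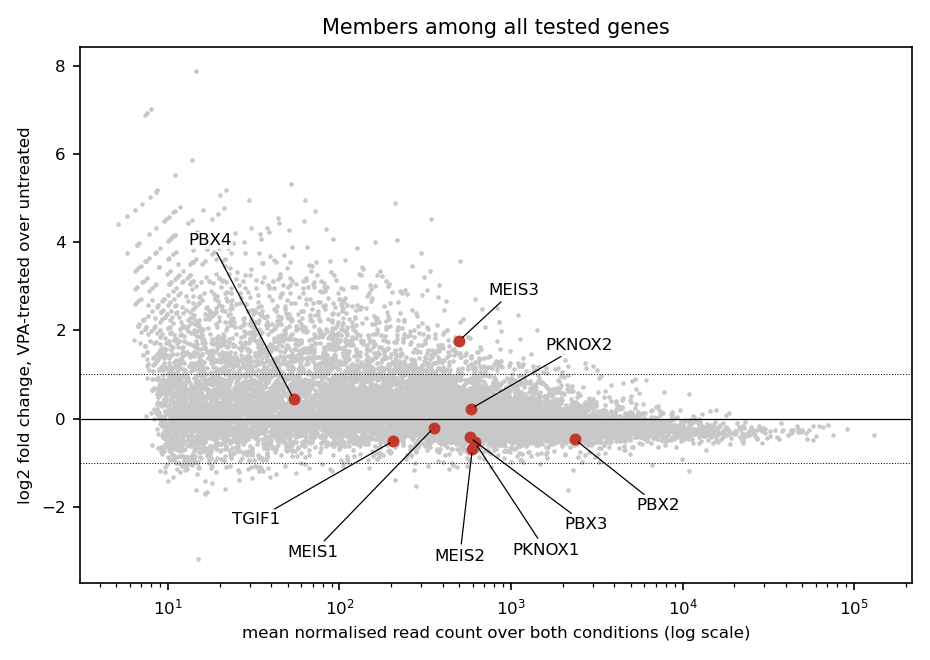
Log2 fold change (VPA-treated over untreated) against the mean normalised read count of both conditions, on a log axis, for all 15298 tested genes (grey) and the 9 members (red). Dotted lines mark a log2 fold change of 1 and -1, and MEIS3 at 1.77 is the 1 member beyond them.

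**Figure D3:**
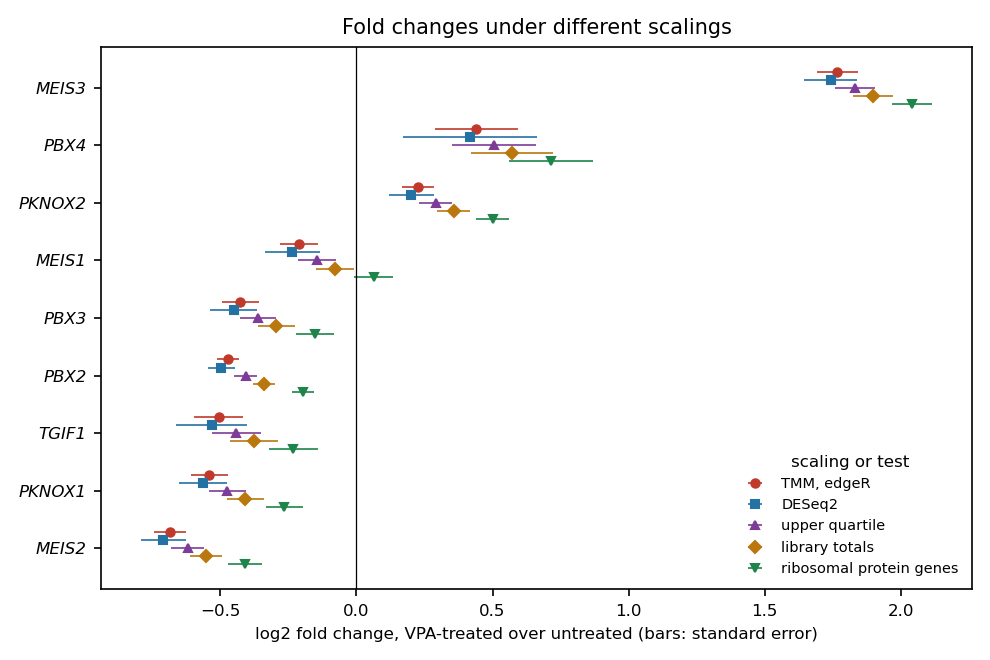
Log2 fold changes of the members with edgeR after TMM, with DESeq2, and with edgeR after 3 other scalings, with bars for the standard error. The points of a gene shift together to the right with upper quartile, library totals and ribosomal protein genes, and MEIS1 is the gene that crosses 0.

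The median log2 fold change over all tested genes was 0.0711 after upper quartile scaling, 0.137 by library totals and 0.281 against ribosomal protein genes in place of 0.0058, and -0.0188 with DESeq2 size factors. MEIS1, PBX2, PBX3, PKNOX1, MEIS2 and TGIF1 were below that median under each of these scalings, and MEIS3, PBX4 and PKNOX2 above it. A change of scaling shifts all genes and their median by nearly the same amount. The side of the median on which a gene lay was thus fixed and says nothing about the scalings.

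Levels of different genes were compared per length, as normalised counts per 1000 bases of exon and 1000000 counts, with the union of GENCODE exons as the length. In untreated cells PBX2 led with 33.5 ± 0.99 (SD, n = 3, as for all these levels), followed by PBX3 with 7.17 ± 0.12 and PKNOX1 with 5.12 ± 0.53. PKNOX2 came next with 4.41 ± 0.28, and its libraries overlapped those of PKNOX1. MEIS2 with 3.29 ± 0.14, MEIS3 with 2.36 ± 0.31 and MEIS1 with 1.86 ± 0.084 followed. TGIF1 was at 1.59 ± 0.060 and PBX4 last at 1.05 ± 0.090. After VPA MEIS3 stood second at 8.04 ± 0.14, behind PBX2 at 24.1 ± 0.26. PBX3 was then at 5.34 ± 0.54 and PKNOX2 at 5.15 ± 0.067, which overlapped, while PKNOX1 was at 3.52 ± 0.038, MEIS2 at 2.05 ± 0.094, MEIS1 at 1.60 ± 0.035, PBX4 at 1.43 ± 0.040 and TGIF1 at 1.12 ± 0.086. The order from the third place down depended on the length, and after VPA PBX4 was last and TGIF1 next to last with the longest and with the canonical transcript. With the longest or the canonical transcript PBX2 was still first in both conditions, PBX3 second in untreated cells and MEIS3 sixth before and second after treatment.

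Summed over MEIS1, MEIS2 and MEIS3, the level was 7.51 ± 0.39 in untreated and 11.7 ± 0.091 in VPA-treated cells, 1.56 times as high, although MEIS3 was the 1 higher gene of the 3. MEIS3 made up 31.4 ± 2.52% of the MEIS sum before and 68.8 ± 1.02% after treatment, MEIS2 43.9 ± 0.69% and 17.5 ± 0.82%, and MEIS1 24.8 ± 2.18% and 13.7 ± 0.24%. Over PBX2, PBX3 and PBX4 the sum went from 41.7 ± 0.86 to 30.9 ± 0.60. The share of PBX3 in it was 17.2 ± 0.56% and 17.2 ± 1.46%, a difference within the spread, and that of PBX4 2.52 ± 0.25% and 4.62 ± 0.041%. PKNOX1 and PKNOX2 together were at 9.52 ± 0.50 and 8.67 ± 0.072, and PKNOX2 took 46.3 ± 3.45% of the sum before and 59.4 ± 0.44% after. With library totals as the scaling the PKNOX sum hardly differed, with a log2 ratio of -0.0032. No test was run on these sums and shares, and the sums cover only the genes named.

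**Figure D4:**
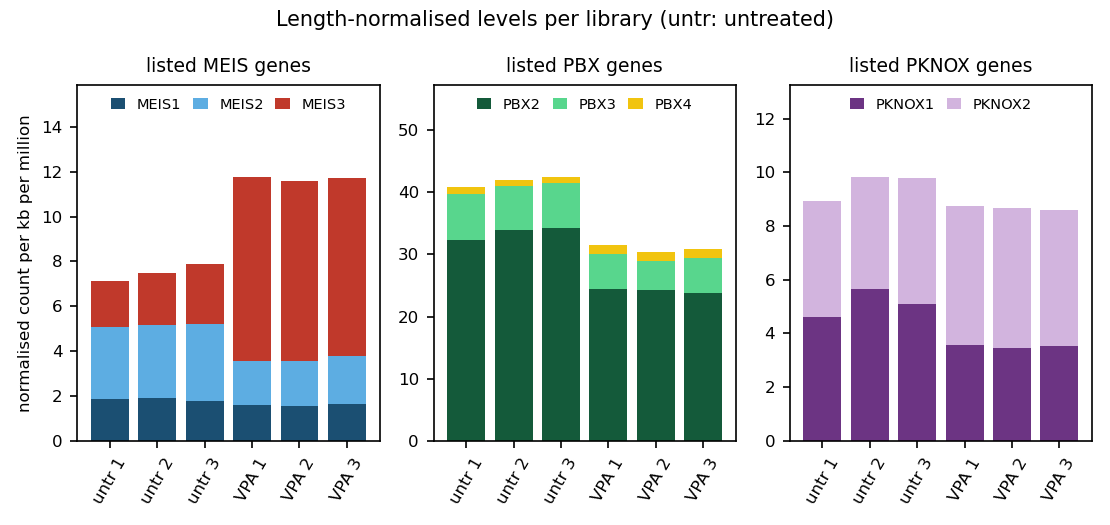
Normalised counts per 1000 bases and 1000000 counts in each library, stacked by gene for the listed MEIS, PBX and PKNOX genes (untr: untreated). The MEIS bars grow from 7.13 to 7.91 up to 11.6 to 11.8 through MEIS3, and the PBX bars shrink from 40.8 to 42.4 down to 30.3 to 31.5.

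Among 8 other TALE genes 5 could be tested, of which 2 were higher and 1 lower, against 32.9% and 30.0% of all tested genes. Their median log2 fold change was 0.18. TGIF2, the paralog of TGIF1, was lower like TGIF1, with 1051 ± 44.3 and 827 ± 8.54 normalised counts (SD, n = 3 each) and a log2 fold change of -0.35 (adjusted p = 4.94e-06, edgeR). Iroquois genes, a TALE group that patterns heart, limb and neural tissue, gave IRX6 with 42.4 ± 7.13 and 128 ± 2.97 normalised counts and a log2 fold change of 1.59, and IRX3 with one of 0.30 (adjusted p = 2.26e-09 and 0.0021, edgeR). IRX5 with 0.18 and MKX, a tendon factor, with 0.16 did not pass (adjusted p = 0.13 and 0.31). IRX4 had 24 counts in all and was not tested, with 2, 0 and 1 counts in untreated and 8, 3 and 10 in VPA-treated libraries. IRX1 and IRX2 are listed at 0 in every library. With DESeq2, with no filter on low counts, with library totals or without untreated replicate 1, 3 of the 8 genes were higher.

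Of the 39 HOX genes, the partners of this family, 37 were tested. Of these 28 were lower and 3 higher, against 30.0% and 32.9% of all tested genes. Their median log2 fold change was -0.69 beside 0.0058 for all tested genes. HOXB9 and HOXD11 had the smallest p among the lower ones, with -0.98 and -0.99, and HOXB13 and HOXC12 among the higher ones, with 0.42 and 1.22.

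The lists of partners and related genes below were chosen with earlier results of these data known. Among 5 other PBX or MEIS partners 4 were tested and all 4 passed, against 62.9% of all tested genes. EN2, a homeobox gene of the midbrain and hindbrain boundary, had a log2 fold change of -0.58, while its paralog EN1 with 0.69 and PDX1, a pancreatic homeobox gene, with 0.69 were higher. MYOD1, the muscle regulator that binds DNA beside PBX proteins, went from 2.44 ± 1.61 to 34.9 ± 6.34 normalised counts, or 3.77 on the log2 scale (SE 0.38, edgeR adjusted p = 2.16e-08), and TLX1 had 1 count.

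Genes of 14 proteins that bind or regulate these cofactors were also listed. In edgeR 11 of these genes were lower and 3 did not pass, with a median log2 fold change of -0.18. Over all tested genes 30.0% were lower. None of the 14 was higher in the main edgeR fit or with DESeq2, nor at an unadjusted p under 0.05 in that edgeR fit. SMAD3 came close, with an unadjusted p of 0.053 in edgeR. CREBBP, an acetyltransferase recruited as a coactivator, fell most, by 0.52 on the log2 scale (adjusted p = 5.23e-10, edgeR). The other 10 that passed changed by less than 0.5, among them SMAD4 with -0.39 and SKI with -0.35, both partners of TGIF1, and CRBN with -0.24 and PBXIP1 with -0.19, of which CRBN is the ligase receptor that recognises MEIS2 and PBXIP1 an inhibitor of PBX binding. HDAC1 with 0.02 and SMAD3 with 0.11 were among those that did not pass. With library totals as the scaling 4 of the 14 were lower and 2 higher. Without untreated replicate 2, or with a block for replicate number, there was 1 higher.

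Of 8 genes reported as MEIS1 targets, 2 were higher and 1 lower, against 32.9% and 30.0% of all tested genes. Their median log2 fold change was 0.095. TRIB2, a pseudokinase, went from 73.8 ± 4.70 to 300 ± 15.9 normalised counts with a log2 fold change of 2.02, and CDKN1A, a cell cycle inhibitor that also responds to deacetylase inhibitors, had 0.66 (adjusted p = 2.29e-13 and 3.33e-07, edgeR). PAX6 was lower with -0.46. HIF1A with -0.05, FLT3 with 0.24, CCND3 with 0.10, CDKN2A with -0.26 and CDKN2B with 0.09 did not pass. Without untreated replicate 3, or without VPA-treated replicate 1, there were 2 lower genes.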

How the data were processed

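RNA-seq was analysed from 3 untreated and 3 VPA-treated HEK293T libraries, grouped by their titles. Reads had been filtered (SOAPnuke), mapped to hg38 (STAR) and assigned to genes (htseq-count) by the authors, who deposited raw counts for each library. The submitters' processing notes name STAR 2.7.10b and HTSeq 2.0.1. The gene annotation and strand setting are not given in the sources used here. The 5 summary lines of each file were left out, among them reads on no gene, 6.80% to 7.69% of a file's total.

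The test was edgeR 4.0.16 under R 4.3.3 (TMM, filterByExpr with a count minimum of 10, robust quasi-likelihood fit on condition, prior count 0.125) over 15298 genes with Benjamini-Hochberg adjustment. Standard errors (SE) were derived from the fold change and its F statistic. The biological coefficient of variation was 3.83%, and libraries of a condition differed by more than sampling noise (chi-square per gene of 1.62 to 4.80). Alternatives were DESeq2 1.42.0, 4 other scalings, other filters, prior count and thresholds, glmTreat, a block for replicate number, and leaving out single libraries. Coordinates and windows are from RefSeq on GRCh38.p14, in which all 9 symbols matched, and exon lengths from GENCODE 44. The members and gene lists were chosen with earlier results of these data known. Named genes were the 9 members and other TALE genes, 2 HOX genes in each direction, and of each further list up to 4 of smallest p among those past the test with a log2 fold change of at least 0.5. Other genes of a list are named with their values after those were seen. Some genes of these lists are not reported here. A permutation test was designed for the class sums and was not used, since no p is given for a sum over chosen members.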

Additional observations from a re-analysis of the deposited data

How the results depend on the processing

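Of 135 comparisons of a member's log2 fold change with an alternative, 129 kept direction and side of the threshold. MEIS1 had -0.15 with upper quartile scaling (adjusted p = 0.078 in edgeR), -0.080 with library totals (0.34) and 0.064 with ribosomal protein genes (0.45), where its direction turned. PBX3 had -0.15 with ribosomal protein genes (adjusted p = 0.063), and PBX4 0.42 with DESeq2 (0.17). Those scalings moved the median of all genes to 0.0711, 0.137 and 0.281, and the cause for PBX4 was not tested. Leaving out each library gave 0.37 to 0.50 for PBX4, -0.25 to -0.19 for MEIS1, 1.67 to 1.86 for MEIS3 and -0.72 to -0.66 for MEIS2. The count of members higher was 2 or 3 and that of members lower 4 to 6 over the alternatives, beside 3 and 6. With library totals the log2 ratio of the MEIS sum was 0.77, of the PBX sum -0.30 and of the PKNOX sum -0.0032. With canonical transcript lengths, an alternative chosen after seeing the data, the MEIS2 share of the MEIS sum fell by 25.2 percentage points in place of 26.3. The share of higher genes among all genes called was 52.3% with TMM, 48.9% with DESeq2 size factors, 63.0% with upper quartile, 73.9% by totals and 91.8% with ribosomal protein genes. Of 80 list counts 8 moved by over 1.5 times or rose from 0. With library totals the cofactor-binding list gave 2 higher and 4 lower and the MEIS1 target list 4 higher. The block gave 1 higher in the former and 2 lower in the latter.

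The replicate block gave 3 members higher and 6 lower and changed no member's call, with -0.21 for MEIS1, 1.77 for MEIS3 and 0.44 for PBX4. Same-numbered libraries deviated together with r of 0.14, 0.021 and 0.080, and differently numbered ones with -0.11 to 0.031. These values do not decide whether the numbers pair the libraries, and the main fit used condition only.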

Other observations

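The genes nearest to MEIS3 by their profile over the 6 libraries, by Euclidean distance between log2 normalised counts centred on each gene's mean, were DCLK1, a microtubule-linked kinase of neurons, PARM1 and the collagen gene COL4A4, at distances of 0.13, 0.14 and 0.17. DCLK1 had 79.4 ± 9.93 and 291 ± 9.92 normalised counts (SD, n = 3 each) and a log2 fold change of 1.88, PARM1 of 1.85 and COL4A4 of 1.73. Nearest to PBX2 were MAT2A, which makes S-adenosylmethionine, ANAPC16, a subunit of the anaphase-promoting complex, and TSPAN3, at distances of 0.028, 0.039 and 0.039 and log2 fold changes of -0.47, -0.50 and -0.46. All profiles share the contrast of VPA with no treatment, and a short distance says that the changes were alike in size and no more.

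Of the transcripts named after members, 16 counts each were found for PBX3-DT and PKNOX2-DT over the 6 libraries and 0 for PKNOX2-AS1, below the filter on low counts, while MEIS1-AS3 had 226 and passed it.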
